A study of Mus musculus with 6 samples.

Results

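Chemokine genes of lung fibroblasts (FBs) were followed across 6 single-cell libraries. The set was 10 genes chosen by name, Cxcl1, Cxcl2, Cxcl12, Cxcl13, Cxcl14, Ccl2, Ccl7, Ccl8, Ccl11 and Ccl19, of 42625 gene entries over all tables. All 10 had a row in every library, whose tables listed 30828 to 32285 genes. The study profiled cells sorted for GFP from Pdgfra-GFP mice, a strain in which GFP is knocked in at Pdgfra and so marks cells that use that receptor gene. Adult male mice received PBS or bleomycin, a drug that injures the lung and leads to fibrosis, by oropharyngeal aspiration. Each condition was 1 library of cells pooled from 3 mice, so there was no replicate of any condition and no test between conditions, and every interval given covers counting error within a library only.

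In the single-dose experiment, lungs were taken on day 14 after 1 dose of PBS or bleomycin, and the labels gave the bleomycin dose as 4 U/kg for the sample and 2 U/kg in its protocol. In the repetitive experiment, mice of the same reporter strain received PBS, or bleomycin (1 U/kg, again 1 U/kg, then 0.5 U/kg), with a dose each week for 3 weeks. Their cells were also taken on day 14, which the paper counts from the last dose. In the organoid experiment, GFP+ FBs from reporter mice given PBS (normal) or 2 U/kg bleomycin (fibrogenic), taken on day 14, were grown for 2 weeks in matrigel with tomato+ alveolar type II epithelial cells (AEC2). The labels give the mix as 10 AEC2 to 1 FB, whereas the study's methods describe FBs in excess, so the ratio is uncertain. The AEC2 came from SpcCreER tomato donors, in which Cre under an AEC2 promoter marks the cells after tamoxifen, and the labels name no bleomycin for these donors.

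Chemokines are small secreted proteins that bind G protein-coupled receptors on leukocytes and other cells and guide their movement. Members of the CXC group with an ELR motif, such as CXCL1 and CXCL2, attract neutrophils through CXCR2, several CC members attract monocytes, eosinophils or lymphocytes, and CXCL12, CXCL13 and CCL19 are known as homeostatic chemokines that position lymphocytes and progenitor cells in tissue. Stromal cells such as FBs are a known source of both kinds. Levels are given as counts per 1000000 (CPM) of the unique molecular identifiers (UMIs) summed over a group of cell barcodes, with the exact Poisson 95% interval.

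The libraries held 1015 to 10737 barcodes and 7201081 to 238618743 UMIs. FBs were gated by markers (at least 3 of 8 FB markers in barcodes thinned to 2000 UMIs), and 870 and 838 FBs were kept after single PBS and bleomycin, 5250 and 5508 after repetitive PBS and bleomycin, and 2011 and 2922 in normal and fibrogenic organoids. In every library the FBs carried a median of 4 to 6 of the 8 FB markers and 0 of the 8 macrophage markers. Of the 8 epithelial markers they carried a median of 0 in the lung libraries and 1 in both organoid libraries. Repetitive bleomycin and fibrogenic organoids stood apart, with 43.7% and 33.5% of their barcodes under 2000 UMIs, compared with 5.31% to 15.9% in the others. Pairs of libraries shared 0 to 30 barcode sequences. In sums over FBs, fewer cells using a gene and less RNA per cell cannot be told apart.

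Of the 10 members, 6 lie in 2 chromosomal clusters. Ccl2, Ccl7, Ccl11 and Ccl8 lie in that order, all on the plus strand, within 81.2 kb of chromosome 11 (GRCm38, 82035571 to 82116799), and Cxcl1 and Cxcl2 share 14.7 kb of chromosome 5 (90891241 to 90905938). Cxcl13 lies further along chromosome 5 (95956951 to 95961068), Cxcl12 on chromosome 6 (117168535 to 117181367), Cxcl14 on chromosome 13 (56288643 to 56296551, minus strand) and Ccl19 on chromosome 4 (42754525 to 42756577, minus strand). Of the 31-base words in the last 300 bases of their transcripts, where this 3' assay reads, 66.1% of those of Ccl19 also occurred in Ccl19-ps1, Ccl19-ps3, Gm12407 or Gm2564, and 10.0% of those of Cxcl2 occurred in Cxcl3. For the other 8 members the share was 0 to 0.370%. Counts of Ccl19 are therefore uncertain, since reads may be split among copies.

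Promoter sequence from RefSeq (GRCm38.p6) was used for 7 of the 10 members, and the promoters of Ccl2, Ccl7 and Ccl11 were not analysed here. Sequence before the transcript start is printed for Cxcl1, which was higher in lung FBs with the stress gene Atf3, for its neighbour Cxcl2, and for Cxcl12, Cxcl13 and Ccl8, which were higher after both bleomycin courses. Capitals mark matches, on either strand, to the NF-kB motif (GGG, any pair of bases, TT, any base, CC) or to the TATA motif TATAAA. The windows are chr5:90890995-90891240, chr5:90903649-90903870, chr6:117168285-117168534, chr5:95956689-95956938 and chr11:82114935-82115184, all on the plus strand.
Cxcl1: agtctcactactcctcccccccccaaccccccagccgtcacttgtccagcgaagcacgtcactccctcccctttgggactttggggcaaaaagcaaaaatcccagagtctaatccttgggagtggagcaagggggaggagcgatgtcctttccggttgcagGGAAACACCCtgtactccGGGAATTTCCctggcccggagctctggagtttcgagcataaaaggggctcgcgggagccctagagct
Cxcl2: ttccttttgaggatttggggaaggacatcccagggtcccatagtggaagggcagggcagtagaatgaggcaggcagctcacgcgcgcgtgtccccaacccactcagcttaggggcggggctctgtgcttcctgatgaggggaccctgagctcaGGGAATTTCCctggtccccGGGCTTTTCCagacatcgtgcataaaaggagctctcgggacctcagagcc
Cxcl12: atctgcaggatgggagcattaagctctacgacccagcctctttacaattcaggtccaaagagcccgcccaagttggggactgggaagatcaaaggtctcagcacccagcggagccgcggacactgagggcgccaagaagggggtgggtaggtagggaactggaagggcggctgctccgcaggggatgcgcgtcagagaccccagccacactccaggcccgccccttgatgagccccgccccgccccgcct
Cxcl13: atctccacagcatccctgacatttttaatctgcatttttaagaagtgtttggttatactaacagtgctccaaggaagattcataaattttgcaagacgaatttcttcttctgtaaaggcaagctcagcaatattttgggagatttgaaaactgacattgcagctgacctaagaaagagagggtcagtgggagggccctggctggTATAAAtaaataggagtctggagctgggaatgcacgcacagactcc
Ccl8: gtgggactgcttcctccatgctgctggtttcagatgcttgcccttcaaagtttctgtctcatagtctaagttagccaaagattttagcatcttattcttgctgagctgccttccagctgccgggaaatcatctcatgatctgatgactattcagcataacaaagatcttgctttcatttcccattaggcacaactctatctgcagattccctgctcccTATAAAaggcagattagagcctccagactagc

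Cxcl1 held NF-kB motif matches at 85 to 76 bases (minus strand) and 67 to 58 bases before its start, and Cxcl2 at 69 to 60 and 50 to 41 bases. For counts over promoters, the 250 bases before the RefSeq start were searched for every gene, members included, whereas the printed windows of Cxcl1 and Cxcl2 end at the annotated GENCODE start and so hold 246 and 222 bases. Matches to the NF-kB motif were present in 3 of the 7 member promoters (Cxcl1, Cxcl2 and Ccl19) and in 4.00% of 27025 promoters. TATAAA was found in 2 of 7 (Cxcl13 at 46 to 41 bases and Ccl8 at 32 to 27 bases) and in 13.0% of all promoters. The AP-1 motif TGANTCA was found in 0 of 7 and in 6.87% of all promoters. These letter matches describe the windows only.

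After a single dose of bleomycin, FBs held more Cxcl12, Cxcl13, Ccl2, Ccl7 and Ccl8 RNA than FBs after PBS, and after repetitive dosing they held more Cxcl12, Cxcl13 and Ccl8. A gene was called higher or lower where log2(CPM + 1) differed by at least 1 and the level reached 10 CPM in either library. By this rule 5 of the 9 members at 10 CPM were higher and 0 lower after the single dose, where 6.79% of 8412 genes were called higher and 3.77% lower. After repetitive dosing 3 of 10 were higher and 0 lower, where 5.63% of 9161 genes were called higher and 2.36% lower. After the single dose, Cxcl13, Ccl7 and Ccl8 reached 10 CPM only in the bleomycin library, as did Cxcl2 and Ccl8 after repetitive dosing. The median log2 ratio of all 10 members, whatever their level, was 1.27 and 0.66, compared with 0.13 and 0.04 over the 17635 and 24638 genes with a UMI. The members were chosen with earlier results of these data known, so these counts and medians describe them and not chemokines as a class. The 25 other listed chemokines had medians of 0.34 and 0.76. The 3 genes called higher after repetitive dosing were among the 5 called after the single dose. The same overlap over all called genes was not worked out, so this one describes the members only.

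**Figure D1:**
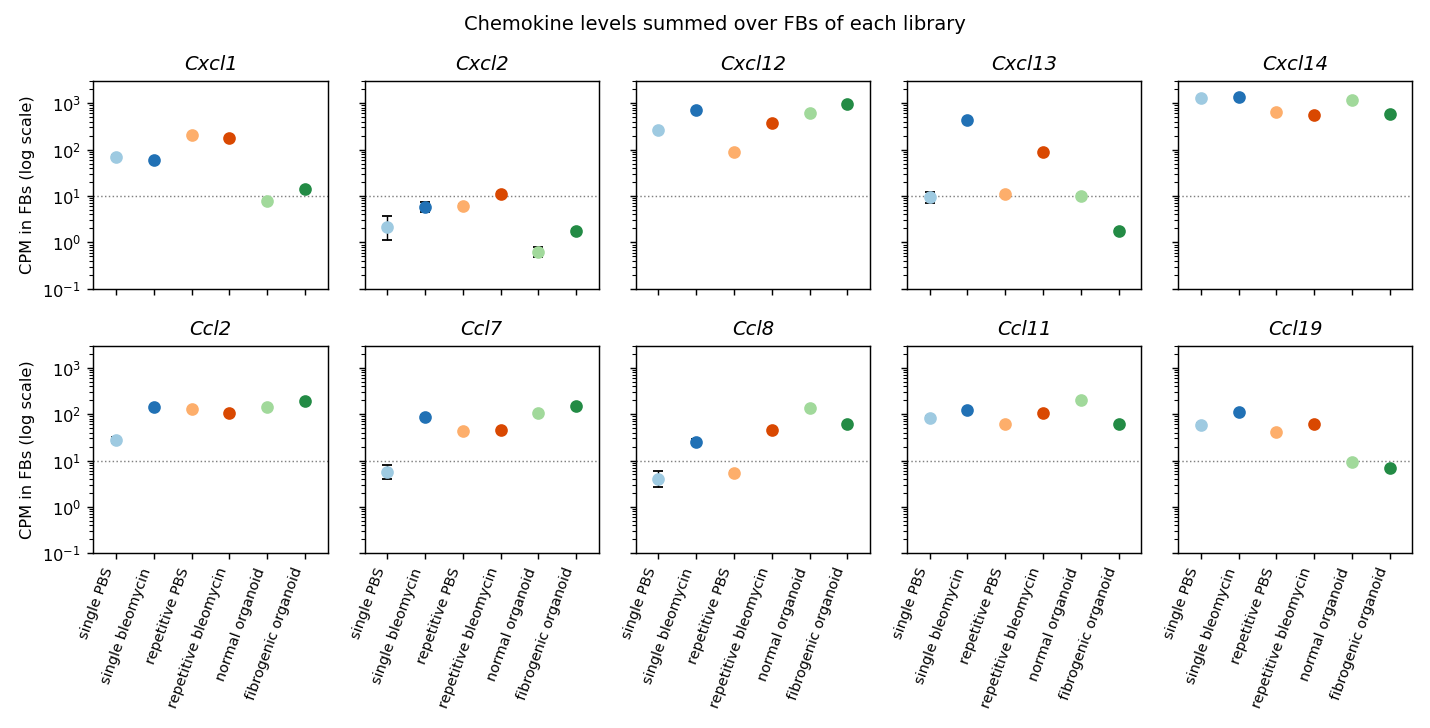
Level of each chemokine in CPM (log scale) summed over the FBs of each of the 6 libraries, 1 point per library, with exact Poisson 95% intervals where wider than the point. The dotted line marks 10 CPM. Cxcl12, Cxcl13 and Ccl8 sit higher in the bleomycin than in the PBS library of both lung experiments, whereas Ccl2 does so after the single dose only.

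Cxcl1 and Cxcl2, ligands of the neutrophil receptor CXCR2, were not called in FBs as a whole. Cxcl1 was at 68.1 CPM (61.7 to 74.9) after single PBS and 58.9 CPM (54.4 to 63.6) after single bleomycin, and at 211 and 181 CPM after repetitive PBS and bleomycin, log2 ratios of -0.21 and -0.22. Both repetitive libraries thus lay above both single-dose libraries, and the part of handling or processing in this was not tested. Cxcl2 was low, at 2.13 and 5.77 CPM in the single-dose FBs and 6.08 and 11.1 CPM in the repetitive FBs. Whether any of these reads belong to Cxcl3 was not tested. Cxcl3 itself was counted at 0 UMIs in FBs of both single-dose libraries, and at 0 and 112 UMIs after repetitive PBS and bleomycin. Within the MatrixFB-like subset described below, Cxcl1 was at 281 and 145 CPM after single PBS and bleomycin (-0.95, just outside the call) and at 462 and 153 CPM after repetitive PBS and bleomycin (-1.59, called). In LipoFB-like FBs, which held 7605 of the 12364 Cxcl1 UMIs of FBs after repetitive PBS, it was at 26.3 and 29.0 CPM (0.14) and at 161 and 192 CPM (0.25), not called. MatrixFB-like FBs held 63.9% of FB Cxcl1 UMIs after single PBS and 47.6% after single bleomycin, and 31.3% and 23.4% in the repetitive libraries. Without the FBs that had an Atf3 UMI, the log2 ratio of Cxcl1 turned to 0.19 in the single-dose and 0.27 in the repetitive experiment.

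Cxcl12, the ligand of CXCR4 and of the scavenging receptor ACKR3, was higher after bleomycin in both experiments. FBs held 269 CPM (256 to 282) after single PBS and 725 CPM (709 to 742) after single bleomycin, a log2 ratio of 1.43. After repetitive PBS and bleomycin they held 89.0 CPM (86.6 to 91.4) and 379.6 CPM (375 to 385), a log2 ratio of 2.08. In the thinned FBs, the share with a Cxcl12 UMI was 24.3% and 55.5% in the single-dose libraries and 11.9% and 42.0% in the repetitive libraries. T cell-like barcodes of the same libraries, which should lack the gene, held a Cxcl12 UMI in 0 of 11, 9.09% of 11, 0 of 81 and 10.4% of 48 barcodes, at median depths of 3267, 4363, 3532 and 4459 UMIs compared with 6995.5, 11672, 10624.5 and 8569.5 in FBs. Cxcl12 was spread over many FBs, with 50% of its UMIs in the highest 54 and 105 FBs of the single-dose libraries and the highest 275 and 472 FBs of the repetitive libraries. Over 15 alternatives for the single dose the log2 ratio stayed between 1.37 and 1.63, and over 16 for repetitive dosing between 1.88 and 2.20. These include alternatives of the minimum level, which cannot change a ratio.

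Cxcl13, which attracts B cells through CXCR5, was higher after bleomycin in both lung experiments, and its RNA sat in few FBs. It was at 9.32 CPM (7.06 to 12.1) after single PBS and 426 CPM (414 to 439) after single bleomycin, a log2 ratio of 5.37. In the repetitive experiment the levels were 10.9 CPM (10.0 to 11.8) and 86.8 CPM (84.4 to 89.2), a log2 ratio of 2.89. Of 4579 UMIs in the single bleomycin FBs, 67.7% sat in 9 FBs and 1033 in a single FB, where Cxcl13 made up 2.77% of all UMIs. After single PBS, 47 of 57 UMIs were in 1 FB. Leaving out the 1% of FBs with the most chemokine UMIs, summed over all 10 members, gave a log2 ratio of 4.36 for the single dose and 3.50 for repetitive dosing. Leaving out the 1% with the most Cxcl13 UMIs in each library gave 0 and 139.6 CPM after single PBS and bleomycin (7.14). After repetitive PBS and bleomycin it gave 0 and 17.5 CPM (4.21).

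FBs with at least 10 Cxcl13 UMIs before thinning, a limit set after the values were seen, numbered 1 after single PBS, 33 (3.94%) after single bleomycin, 13 (0.248%) after repetitive PBS and 75 (1.36%) after repetitive bleomycin. Median FB depth in these libraries was 6995.5, 11672, 10624.5 and 8569.5 UMIs, and a fixed limit is easier to reach at greater depth. Most were MatrixFB-like, 25 of 33 after single bleomycin, 13 of 13 after repetitive PBS and 44 of 75 after repetitive bleomycin, and 0 of 33 and 10 of 75 were LipoFB-like. In the single bleomycin library these 33 FBs also held 2254 CPM of Cxcl12 compared with 674 CPM in the other FBs, 487 compared with 98.1 CPM of Ccl19, and 275 compared with 51.6 CPM of Cxcl1. Cxcl14 went the other way, at 232 CPM compared with 1429 CPM. The MatrixFB-like FBs of this library as a whole held 1337 CPM of Cxcl12, 342 CPM of Ccl19, 145 CPM of Cxcl1 and 775 CPM of Cxcl14. The contrast with the other FBs therefore also holds the difference between subsets. The 75 FBs after repetitive bleomycin gave the same order for these genes, with 1194 and 366 CPM of Cxcl12, 272 and 58.3 CPM of Ccl19, 369 and 178 CPM of Cxcl1 and 372 and 566 CPM of Cxcl14. MatrixFB-like FBs of that library held 648, 136, 153 and 292 CPM of them, so their Cxcl14 was below that of the 75 FBs. Ccl7 was also higher in FBs with at least 10 Cxcl13 UMIs, at 255 and 82.4 CPM after single and 209 and 41.9 CPM after repetitive bleomycin. Ccl11 was so too, at 309.7 and 115 CPM and at 245 and 106 CPM. MatrixFB-like FBs of these libraries held 167 and 64.8 CPM of Ccl7 and 285 and 307 CPM of Ccl11. Ccl2, Ccl8 and Cxcl2 changed order between the libraries. Ccl2 was at 118 and 142 CPM after single and 163 and 104 CPM after repetitive bleomycin. Ccl8 was at 20.1 and 25.8 CPM and at 91.4 and 44.0 CPM, and Cxcl2 at 2.87 and 5.87 CPM and at 76.2 and 10.1 CPM. In the single bleomycin library, 40.3% of all FBs held a Cxcl13 UMI before thinning, at a median of 11672 UMIs. Other types in it held one in 27.3% of 11 T cell-like barcodes (median 4363 UMIs) and 43.5% of 23 macrophage-like barcodes (median 7565 UMIs), and their levels were 59.0 CPM (12.2 to 173, from 3 UMIs) and 58.8 CPM (from 12 UMIs). The share of FBs with any UMI is therefore not given as the share of FBs using the gene.

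**Figure D2:**
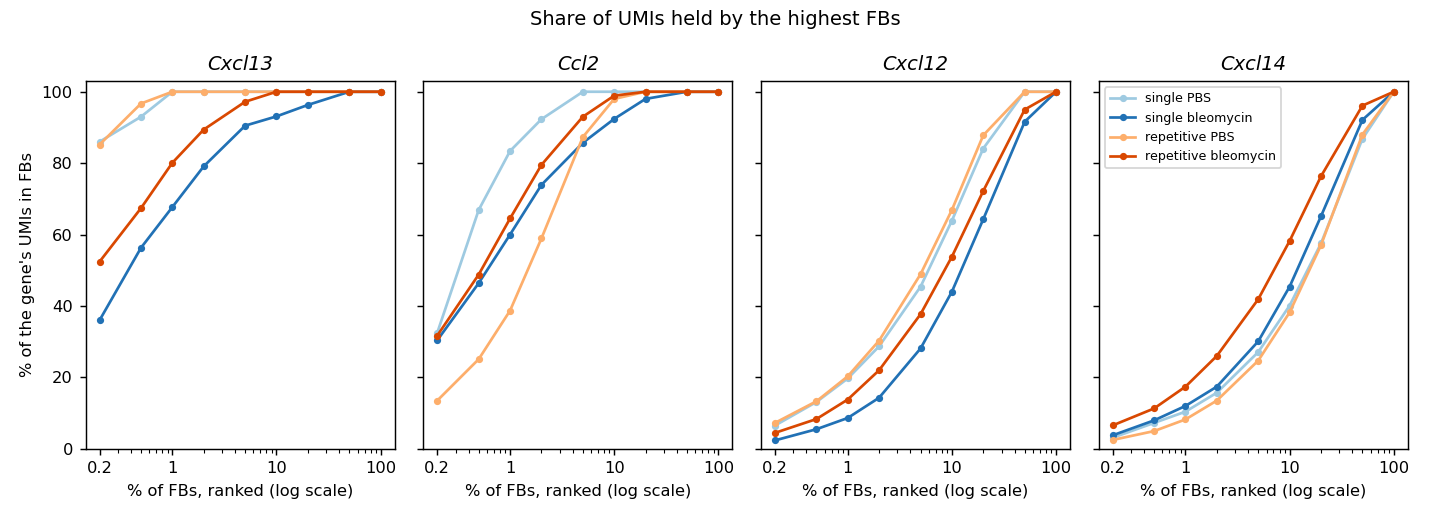
Share of a chemokine's UMIs in FBs (%) held by the highest FBs, ranked by their UMIs of that gene (% of FBs, log scale), for Cxcl13, Ccl2, Cxcl12 and Cxcl14 in the 4 lung libraries. After single bleomycin the highest 1% of FBs held 67.7% of Cxcl13 UMIs and 60.0% of Ccl2 UMIs, and the curves of Cxcl12 and Cxcl14 rise later.

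Cxcl14, a chemokine of epithelial and stromal cells whose receptor is less settled, differed little with bleomycin in the lung. FBs held 1263 CPM (1235 to 1292) and 1390 CPM (1368 to 1413) after single PBS and bleomycin, a log2 ratio of 0.14. After repetitive PBS and bleomycin they held 649.5 CPM (643 to 656) and 563 CPM (557 to 569), a log2 ratio of -0.21. The direction thus differed between the experiments, and neither reached the call. LipoFB-like FBs held 79.3% and 51.2% of FB Cxcl14 UMIs in the single-dose libraries and 88.7% and 59.9% in the repetitive libraries, while they made up 75.9%, 43.9%, 80.1% and 46.2% of the FBs. Cxcl14 was the most evenly spread of the 4 genes in the concentration plot after PBS, with 50% of its UMIs in the highest 133 of 870 FBs and the highest 833 of 5250 FBs.

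Ccl2 and Ccl7, which recruit monocytes through CCR2, were higher after the single dose and not called after repetitive dosing. Ccl2 was at 27.6 CPM (23.6 to 32.1) and 141 CPM (134 to 148) after single PBS and bleomycin, a log2 ratio of 2.31, and at 128 CPM (125 to 131) and 105 CPM (102 to 107) after repetitive PBS and bleomycin, a log2 ratio of -0.28. Ccl7 was at 5.73 CPM (3.99 to 7.96) and 88.0 CPM (82.5 to 93.8) after single PBS and bleomycin, a log2 ratio of 3.73, and at 44.1 and 44.5 CPM after repetitive PBS and bleomycin, a ratio of 0.01. The repetitive PBS library already held both genes above their single PBS level, while the levels after bleomycin lay nearer to each other. The single-dose tables listed 30830 and 30828 genes and the repetitive ones 32285. Differences in handling or processing between the experiments cannot be told apart from differences between the mice. Without FBs that had an Atf3 UMI the repetitive Ccl2 ratio was 0.56, and without the 1% of FBs with the most Ccl2 UMIs it was -1.03 (79.3 and 38.2 CPM), which passed the call for lower.

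Ccl2 was concentrated in few FBs as well. FBs with at least 10 Ccl2 UMIs before thinning, a limit that depends on depth, numbered 6 and 21 in the single PBS and bleomycin libraries and 221 and 113 in the repetitive ones, and 170 of the 221 were LipoFB-like, where 80.1% of all FBs of that library were. The highest FB held 32, 234, 168 and 224 Ccl2 UMIs in these libraries. Within LipoFB-like FBs Ccl2 was at 18.4 and 79.2 CPM after single PBS and bleomycin (2.05) and at 123 and 88.7 CPM after repetitive PBS and bleomycin (-0.47), and within MatrixFB-like FBs at 33.8 and 80.0 CPM (1.22) and 149.8 and 71.2 CPM (-1.06). Without the barcode holding the most Ccl2 UMIs in each group, the levels after single PBS and bleomycin were 13.4 and 50.4 CPM in LipoFB-like FBs. In MatrixFB-like FBs they were 11.7 and 54.6 CPM. The 88 and 154 MyoFB-like FBs of the single and repetitive bleomycin libraries held 293 and 321 CPM of Ccl2, above both larger subsets, but few barcodes carried these levels. One MyoFB-like FB held 227 of the 493 UMIs after single bleomycin, and the level without it was 159.9 CPM. After repetitive bleomycin, 2 held 224 each of 845, and the level without both was 156 CPM. Of the MyoFB-like FBs, 58.0% and 57.8% lay at the gate's limit (3 markers, or 1 more than of the next subset).

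Ccl8, a ligand of CCR8 in the mouse, and Ccl11, the eosinophil chemokine eotaxin that binds CCR3, were found mainly in MatrixFB-like FBs, apart from Ccl11 after single bleomycin. Ccl8 was at 4.09 CPM (2.65 to 6.04) and 25.6 CPM (22.7 to 28.8) after single PBS and bleomycin, a log2 ratio of 2.39, and at 5.41 CPM (4.83 to 6.04) and 44.8 CPM (43.1 to 46.5) after repetitive PBS and bleomycin, a ratio of 2.84. MatrixFB-like FBs held 88.0%, 66.5%, 90.9% and 88.1% of its UMIs in the 4 libraries, although they made up 15.4%, 26.0%, 15.3% and 36.5% of the FBs. Within this subset Ccl8 still differed, at 23.2 and 88.2 CPM after single dosing (1.88) and 34.4 and 143 CPM after repetitive dosing (2.02).

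Ccl11 in FBs was at 82.4 and 122 CPM after single PBS and bleomycin (0.55) and at 60.9 and 108 CPM after repetitive PBS and bleomycin (0.82), and neither passed the call. The 2 large subsets went opposite ways. In LipoFB-like FBs it was higher after bleomycin, at 6.35 and 38.3 CPM (2.42) after single and 8.06 and 26.4 CPM (1.59) after repetitive dosing, whereas in MatrixFB-like FBs it was at 485 and 285 CPM (-0.77) and 366 and 307 CPM (-0.26), without a call. With subsets weighted as in the PBS library, the ratio over all FBs was 0.04 and 0.16. MatrixFB-like FBs held 91.3% of Ccl11 UMIs after single PBS and 45.3% after single bleomycin, and 85.9% and 78.4% in the repetitive libraries. Without the 2 barcodes with the most Ccl11 UMIs, LipoFB-like levels were 4.62 and 25.0 CPM (single) and 6.05 and 24.1 CPM (repetitive). Of LipoFB-like FBs, 12.1% and 25.8% lay at the gate's limit after single PBS and bleomycin, and 8.70% and 25.1% after repetitive PBS and bleomycin. For MatrixFB-like FBs these shares were 19.4%, 27.5%, 20.8% and 20.3%. The part of the gate in the Ccl11 values was not tested.

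Ccl19, which guides CCR7-bearing dendritic cells and T cells, was at 59.1 and 111 CPM after single PBS and bleomycin (0.90) and at 42.1 and 61.7 CPM after repetitive PBS and bleomycin (0.54), below the call. In MatrixFB-like FBs it was at 135 and 342 CPM after single dosing (1.33, called) and at 101 and 136 CPM after repetitive dosing (0.42). In LipoFB-like FBs the levels were 39.8 and 49.8 CPM, and 29.2 and 28.3 CPM. The MatrixFB-like share of Ccl19 UMIs was 35.5% and 59.6% in the single-dose and 34.5% and 60.9% in the repetitive libraries.

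Subsets were named only from marker lists. LipoFB-like FBs carried markers such as Tcf21, Plin2 and Npnt of the lipid-storing alveolar FB, MatrixFB-like FBs carried Col14a1, Dcn, Pi16 and others of the adventitial FB, and MyoFB-like FBs carried Spp1, Cthrc1 and Postn, and no member was among the markers. Median depth in the MatrixFB-like FBs was 7210.5 and 8611.5 UMIs in the single-dose and 10015.5 and 5327.5 UMIs in the repetitive libraries. In LipoFB-like FBs 5 of 8 members were called higher and 0 lower after the single dose (5.95% and 3.38% of all genes tested), and 3 of 8 higher and 0 lower after repetitive dosing (5.33% and 2.13%). Cxcl12 was among them in both, at 144 and 661 CPM (2.19) and at 48.0 and 273 CPM (2.48), as was Cxcl13, at 1.09 and 42.3 CPM (4.37) and at 0.254 and 12.3 CPM (3.41). For these low Cxcl13 levels, T cell-like barcodes held 59.0 CPM (12.2 to 173) after single bleomycin, an interval that holds the 42.3 CPM of LipoFB-like FBs. After repetitive bleomycin, 48 T cell-like barcodes held 0 UMIs (0 to 13.7 CPM), an interval that holds the 12.3 CPM of LipoFB-like FBs. Of the called members, Cxcl13, Ccl7 and Ccl11 after the single dose and Cxcl13 and Ccl11 after repetitive dosing reached 10 CPM in this subset only in the bleomycin library.

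In MatrixFB-like FBs 5 of 9 members were called higher and 0 lower after the single dose (6.60% and 4.14% of genes). After repetitive dosing 3 of 10 were called higher (2.37%) and 3 lower (1.64%), the lower ones being Cxcl1, Ccl2 and Cxcl2, which was at 21.5 and 5.36 CPM (-1.82) and so reached 10 CPM only after PBS. Cxcl12 in this subset was at 842 and 1337 CPM (0.67, not called) and at 300.2 and 648 CPM (1.11). Cxcl13 was at 52.7 and 931 CPM (4.12) and at 74.1 and 164 CPM (1.14). Ccl7 was at 14.8 and 167 CPM (3.42) after single dosing and at 107 and 64.8 CPM (-0.72) after repetitive dosing. After single PBS 1 barcode held 47 of the 50 Cxcl13 UMIs and 1 held 11 of the 14 Ccl7 UMIs of this subset, and the levels without the highest barcode of each gene were 3.19 and 3.18 CPM. In FBs without a subset, 6 of 9 members were called higher and 0 lower after the single dose (10.1% and 7.43% of genes), and 2 of 9 higher, Cxcl12 and Cxcl13, and 0 lower after repetitive dosing (5.15% and 3.34%). Of these, Cxcl13 (0 and 961 CPM) and Ccl8 (1.77 and 15.3 CPM) after the single dose and Cxcl13 (1.75 and 131 CPM) after repetitive dosing reached 10 CPM in these FBs only in the bleomycin library. One barcode held 1033 of their 1943 Cxcl13 UMIs after single bleomycin and 1 held 557 of 1176 after repetitive bleomycin, and the levels without it were 458 and 69.3 CPM.

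**Figure D3:**
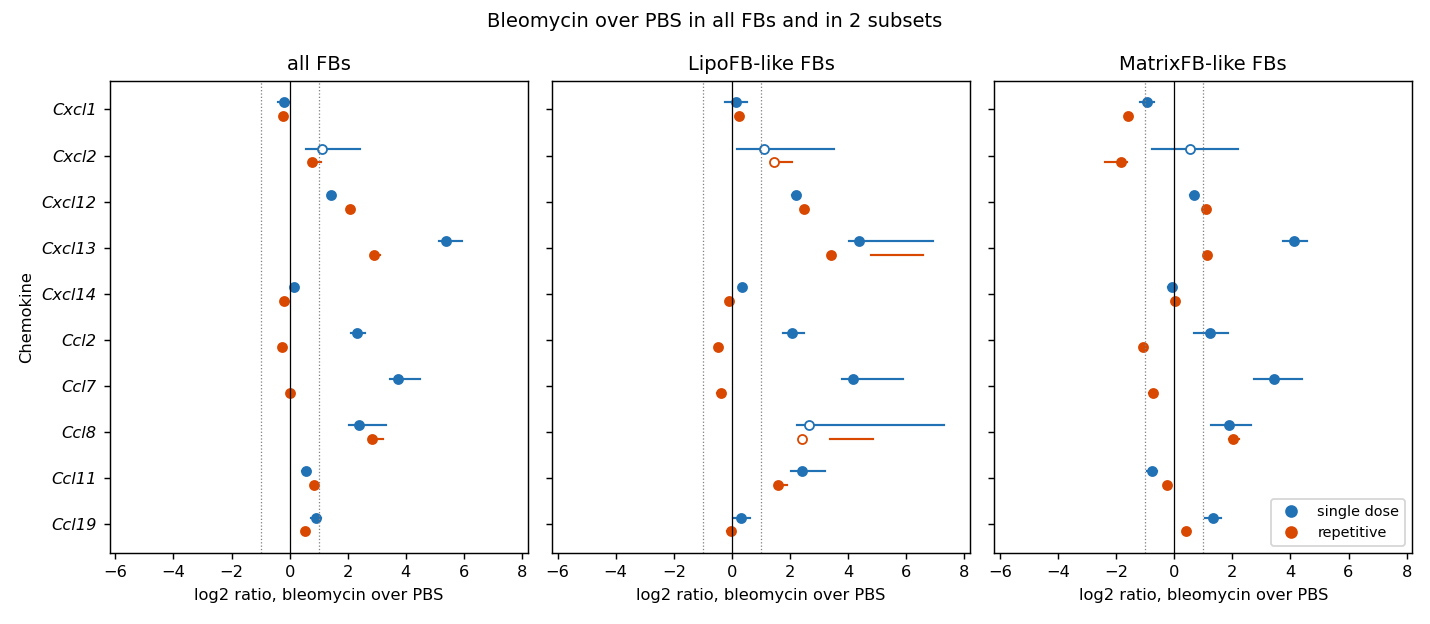
Bleomycin over PBS as a log2 ratio of CPM + 1 for each chemokine in all FBs, LipoFB-like FBs and MatrixFB-like FBs, with single dosing in blue and repetitive dosing in orange. Lines are 95% counting intervals of the ratio without the added 1 CPM, limited to the axis, so that points of low genes can lie outside them, and open circles are genes under 10 CPM in both libraries. Ccl11 lies right of 0 in LipoFB-like FBs and left of 0 in MatrixFB-like FBs in both experiments.

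**Figure D4:**
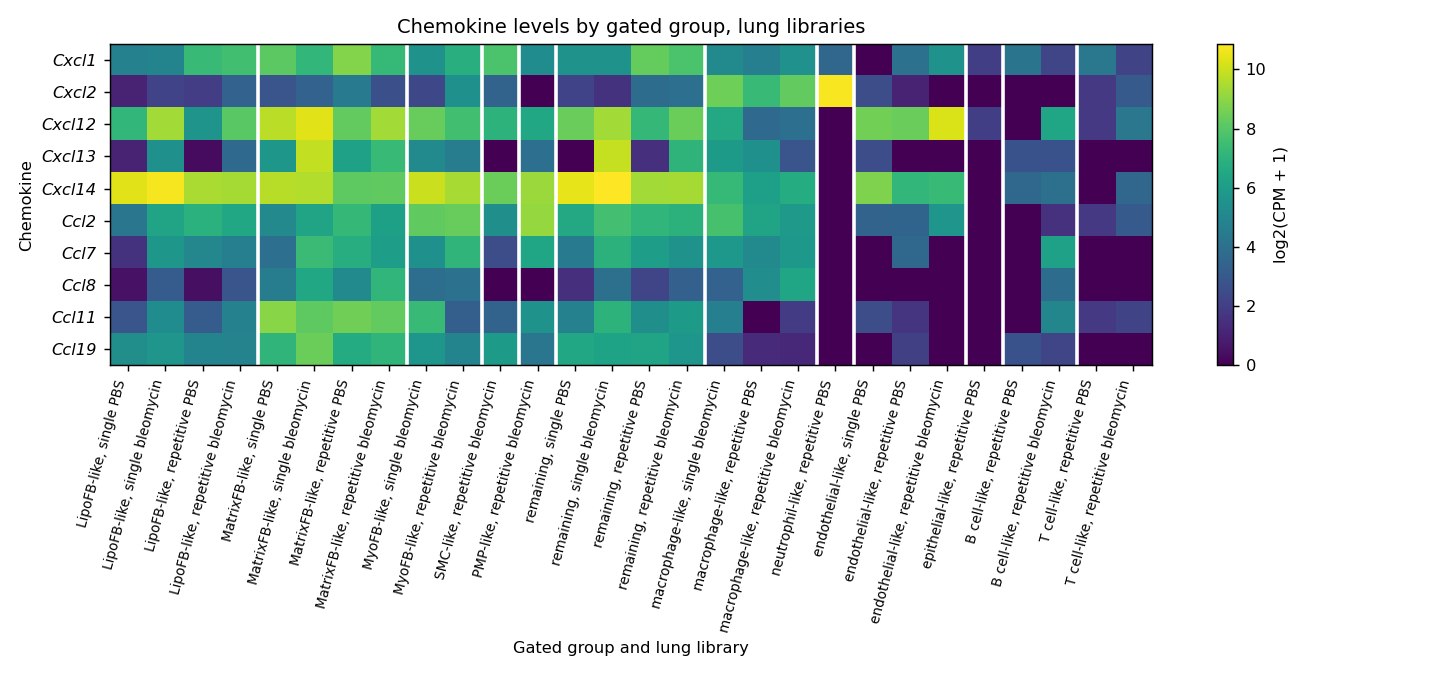
Level of each chemokine as log2(CPM + 1) in every gated cell type or FB subset, and in FBs without a subset (remaining), that held at least 20 barcodes in 1 of the 4 lung libraries, with white lines between cell groups. Among the FB subsets Ccl8 and Ccl11 are highest in MatrixFB-like FBs in every library shown, Cxcl2 is at 1725 CPM in neutrophil-like barcodes after repetitive PBS, and the T cell-like columns show barcodes that should lack these genes.

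Some pairs of neighbouring chemokines were often detected in the same FBs, and others were not. After thinning, a Ccl7 UMI was present in 25.8% of FBs with Ccl2 and 6.83% of FBs without it after single bleomycin, in 17.1% and 1.97% after repetitive PBS, and in 25.1% and 3.08% after repetitive bleomycin. For Ccl11 in FBs with and without Ccl8 the shares were 42.1% and 8.75%, 60.8% and 5.85%, and 53.6% and 13.9% in the same libraries. Ccl8 and Ccl2 did not follow this, with Ccl8 present in 1.61% of FBs with and 4.77% of FBs without Ccl2 after single bleomycin, in 1.58% and 0.924% after repetitive PBS, and in 4.24% and 7.35% after repetitive bleomycin. A Ccl11 UMI was present in 12.9% of FBs with and 10.1% of FBs without Ccl2 after single bleomycin, in 7.89% and 6.26% after repetitive PBS, and in 53 of 354 FBs with Ccl2 and 16.9% of those without it after repetitive bleomycin. After single PBS it was present in 5 of only 20 FBs with Ccl2 and in 6.47% of those without it. Ccl8 in FBs with and without Ccl7 was present in 15.9% and 3.51%, 3.73% and 0.884%, and 8.47% and 7.09% in the 3 libraries, and Ccl11 in 18.8% and 9.49%, 17.4% and 6.03%, and 23.0% and 16.5%. Members on different chromosomes were also found together. Ccl2 was detected in 19.9% of FBs with and 5.42% of FBs without Cxcl1 after repetitive PBS and in 22.0% and 4.03% after repetitive bleomycin. Cells of 1 library share their source, so these shares are descriptions.

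Lung FBs were also split by a UMI of 1 marker gene at a time. FBs with a UMI of Atf3, an immediate early stress gene, held more Cxcl1 in all 4 lung libraries, at 144 CPM compared with 39.3 CPM in FBs without it after single PBS, 216 and 44.9 CPM after single bleomycin, 314 and 95.7 CPM after repetitive PBS, and 422 and 116 CPM after repetitive bleomycin, log2 ratios of 1.84, 2.24, 1.71 and 1.86. Ccl2 did not follow the same order, at 32.7 and 25.7 CPM in FBs with and without Atf3 after single PBS, 90.4 and 146 CPM after single bleomycin, 186 and 61.9 CPM after repetitive PBS, and 153 and 91.9 CPM after repetitive bleomycin. The Atf3+ FBs numbered 232, 73, 2525 and 1195 in these libraries. In organoids the 49 and 95 Atf3+ FBs of the normal and fibrogenic libraries did not hold more Cxcl1, at 4.76 compared with 7.89 CPM (-0.63) and 9.46 compared with 14.0 CPM (-0.52), and Ccl2 was at 77.9 compared with 142 CPM and 347 compared with 191 CPM. The median depth of the fibrogenic Atf3+ FBs was 6504 UMIs compared with 49371 UMIs in the other FBs (51312 and 50112 UMIs in normal organoids), and the part of depth in these values was not tested. In FBs with a UMI of Pi16, a gene of adventitial FBs and one of the MatrixFB markers, Ccl11 was higher by 3.75, 1.60, 3.72 and 2.25 on the log2 scale and Ccl8 by 3.18, 2.92, 4.06 and 2.65, whereas the ratios of Cxcl14 were -1.41, -1.05, -1.72 and -1.45. FBs with a UMI of Sfrp1, a Wnt-binding protein gene, held more Cxcl12 by 0.96, 1.13, 1.38 and 0.93. In the bleomycin libraries, FBs with a UMI of the collagen-producing FB gene Cthrc1 had log2 ratios of -1.15 and -0.84 for Cxcl12 and -1.43 and -0.85 for Cxcl14, and FBs with a UMI of the acute phase gene Saa3 had ratios of 0.82 and 1.17 for Cxcl12. Median depth with and without Saa3 was 12754 and 11437 UMIs after single and 4915 and 8744.5 UMIs after repetitive bleomycin. With and without Pi16 it was 8332.5 and 12282 UMIs, and 4595 and 9932 UMIs. The part of depth in the lung splits was not tested.

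**Figure D5:**
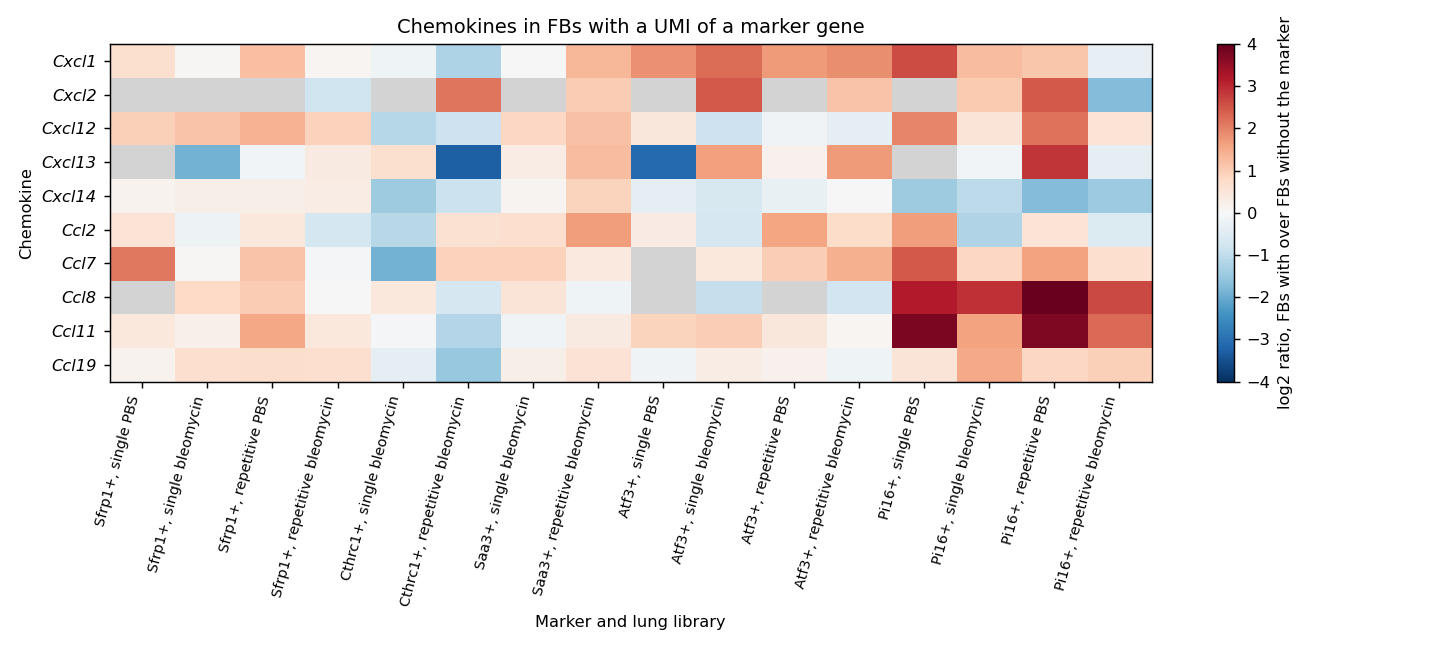
Log2 ratio of CPM + 1 between FBs with and without a thinned UMI of Sfrp1, Cthrc1, Saa3, Atf3 or Pi16 for each chemokine and lung library, with colors limited to -4 and 4 and grey where both groups are under 10 CPM. The Atf3 columns are red for Cxcl1 in all 4 libraries, and the Pi16 columns are red for Ccl8 and Ccl11 and blue for Cxcl14 in all 4.

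Over 19 lung groups of at least 50 barcodes (library by gate) and 12957 genes, the gene most alike in pattern to Cxcl14 was Socs2 (Pearson r of log2(CPM + 1) 0.982), followed by Olfml3 (0.980) and Rnf11 (0.967). For Ccl19 these were Htra3 (0.976), Podn (0.959) and Mrgprf (0.959), for Ccl11 Il33 (0.938), Cyp1b1 (0.928) and Scara3 (0.920), and for Cxcl12 Nr2f1 (0.937), Mfap2 (0.931) and Smarcd3 (0.929). Cxcl1 was most like Col4a6 (0.904), Sobp (0.897) and Has1 (0.896), Ccl8 most like Ifi204 (0.905), Gda (0.882) and Anpep (0.856), and Ccl2 most like Sh3pxd2b (0.909), Stx11 (0.894) and Arfip1 (0.891). The best matches were weaker for Cxcl13 (Dio3 0.843, Foxd2 0.829, Rsph1 0.797) and Ccl7 (B4galt5 0.837, Vps8 0.822, Tmed10 0.804), and for Cxcl2 they were Adgb (0.892), Arhgap22 (0.885) and Tpcn2 (0.875). Among the members, Cxcl12 and Ccl19 (0.853) and Ccl11 and Ccl19 (0.830) were alike. The groups share libraries and depth, and the values describe likeness only.

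Other genes of the pathway were read against the same shares of all genes, 6.79% called higher and 3.77% lower after the single dose and 5.63% and 2.36% after repetitive dosing. Of 8 other chemokines at 10 CPM in the single-dose FBs, 4 were called higher and 1 lower (Ccl17, -2.91, at 16.4 and 1.30 CPM and so at 10 CPM only after PBS). Of those called higher, 3 reached 10 CPM only in the bleomycin library, since Cxcl9 and Ccl21a were at 0 UMIs after PBS and at 14.7 and 10.6 CPM after bleomycin, and Ccl12 was at 2 UMIs and at 11.0 CPM. The median log2 ratio over all 25 listed chemokines in the table was 0.34. Of 5 after repetitive dosing 2 were higher (Cxcl9 by 2.84 and Cxcl16 by 1.04), 1 of the 5 reached 10 CPM only after bleomycin, and the median over all 25 was 0.76. Cxcl10, an interferon-responsive ligand of CXCR3, was also higher in the repetitive than in the single PBS library, at 10.8 and 89.5 CPM in the single-dose and 122 and 117 CPM in the repetitive libraries. The part of handling or processing in this was not tested either.

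Of 18 NF-kB and cytokine input genes, 4 were higher after the single dose (Lif by 1.54, Bcl3 by 1.37, Il6 by 1.25 and Il1r1 by 1.14), and after repetitive dosing 0 were higher and 1 lower (Cebpd, -1.11), with medians of 0.19 and -0.23. Acute phase genes were higher in 4 of 6 after the single dose (Saa3 by 6.24, Lcn2 by 4.41, Hp by 3.46, and Saa1 from 0 UMIs to 11.1 CPM) and in 3 of 5 after repetitive dosing (Saa3 by 4.95, Lcn2 by 3.77 and Hp by 3.35), of which 3 and 2 reached 10 CPM only after bleomycin, and the medians over all listed genes were 2.60 and 1.61. Immediate early genes, which tissue dissociation can induce, were lower in 9 of 10 after the single dose (Atf3 by -2.22, Fos by -1.99, Fosb by -1.78) and in 3 of 10 after repetitive dosing (Atf3 by -1.90, Fosb by -1.18, Egr1 by -1.03), with medians of -1.36 and -0.83. Their part in the chemokine values was not tested beyond the sums without Atf3+ FBs given above.

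Few receptors of these ligands were abundant in FBs. Only 1 and 2 of 22 receptor genes reached 10 CPM in FBs of the single-dose and repetitive experiments, and none was called. Ackr3 was at 18.5, 17.4, 28.1 and 46.2 CPM in FBs of the 4 lung libraries and at 111, 76.2, 183 and 154 CPM in their MatrixFB-like FBs, and endothelial-like barcodes held 59.5, 56.1 and 198 CPM after single PBS, repetitive PBS and repetitive bleomycin. Ccr2, the receptor of Ccl2 and Ccl7, was at 299, 257 and 242 CPM in macrophage-like barcodes after single bleomycin, repetitive PBS and repetitive bleomycin, and at 0.683 to 4.91 CPM in FBs. Cxcr5, the receptor of Cxcl13, was at 198 and 79.9 CPM in the 45 and 80 B cell-like barcodes of the repetitive PBS and bleomycin libraries (35 and 42 UMIs) and at 2.24 and 1.24 CPM in the far more numerous FBs (131 and 72 UMIs). Cxcr2 was at 906 CPM in the 27 neutrophil-like barcodes after repetitive PBS.

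Some ligands were also abundant in the few other cells that passed the GFP sort. Macrophage-like barcodes (16, 23, 60 and 128 in the 4 libraries) held 369, 353, 165 and 302 CPM of Cxcl2, above the FB level in each library. The 27 and 12 neutrophil-like barcodes of the repetitive PBS and bleomycin libraries held still more, 1725 CPM (1467 to 2016) and 3055 CPM (2549 to 3633). Macrophage-like barcodes held 271, 206, 80.0 and 57.9 CPM of Ccl2, above FBs in the single-dose libraries and below them in the repetitive ones. Their Ccl8 level was 97.8, 9.80, 38.5 and 82.9 CPM. Endothelial-like barcodes (25, 8, 75 and 27) held 372, 519, 332 and 1207 CPM of Cxcl12.

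In organoids, no member was called higher in fibrogenic than in normal FBs and 3 of 8 were called lower, where 0.315% of 8253 genes were called higher and 0.957% lower. Ccl11 was at 204 and 59.8 CPM (-1.75), Ccl8 at 133 and 61.0 CPM (-1.11) and Cxcl13 at 10.2 and 1.76 CPM (-2.02) in normal and fibrogenic FBs. Cxcl14, at 1156 and 579 CPM, fell just short of the call. Of these 8 members, Cxcl13, among those called lower, reached 10 CPM only in normal FBs and Cxcl1, not called, only in fibrogenic FBs. The median over all 10 members was 0.03, compared with -0.01 over the 24643 genes with a UMI. Cxcl13 in normal organoids sat in few FBs, with 50% of 1122 UMIs in 4 FBs, and without the 1% of FBs with the most Cxcl13 UMIs in each library its ratio was -0.45, short of the call. The Ccl8 ratio was -0.88, also short of it, when at least 4 of 8 markers were asked of an FB.

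Cxcl12 was at 604 and 973 CPM (0.69), Ccl2 at 140.2 and 195 CPM (0.47) and Ccl7 at 104 and 148 CPM (0.50) in normal and fibrogenic organoid FBs, none called. Cxcl1 was at 7.81 and 13.9 CPM, Cxcl2 at 0.637 and 1.74 CPM, and Ccl19 at 9.42 and 6.84 CPM. Of the organoid FBs, 31.1% and 38.8% lay at the limit of the FB gate. They were mostly MyoFB-like (928 and 1676, with 53.8% and 49.4% at the subset's limit) or without a subset (860 and 927), and 19 and 6 were LipoFB-like. Within MyoFB-like FBs, 2 of 7 members were called lower, Cxcl14 (-1.03) and Ccl11 (-1.48), and 0 higher, where 0.665% of genes were called lower and 0.160% higher. Within FBs without a subset, 3 of 9 were lower, Cxcl13, Ccl8 and Ccl11, and 1 higher, Cxcl1 (1.10% and 0.716% of genes), where Cxcl13 (12.9 and 2.49 CPM) reached 10 CPM only in the normal and Cxcl1 only in the fibrogenic library. One of these fibrogenic FBs held 161 of 642 Cxcl1 UMIs, and 1 normal FB held 240 of 535 Cxcl13 UMIs. Without the highest barcode of each library, Cxcl1 was at 6.14 and 12.0 CPM, short of the call. Cxcl13 was then at 7.10 and 1.07 CPM, under 10 CPM in both. In the 35 and 52 MatrixFB-like FBs, most of them at the gate's limit, Ccl8 was called lower and Cxcl14 and Ccl7 higher (3.66% and 2.15% of genes). A Ccl7 UMI was present in 35.2% of FBs with and 8.73% of FBs without Ccl2 in normal organoids, and in 38.4% and 11.0% in fibrogenic ones.

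Of the other lists in organoid FBs, 1 of 7 other chemokines was higher (Ccl9, at 4.22 and 10.0 CPM, by 1.08, at 10 CPM only in the fibrogenic library) and 1 lower (Cxcl15, -1.55), with a median of 0.01 over all 25 listed, and of 5 acute phase genes 2 were lower (Hp, -1.31, and Saa3, -1.07), against the 0.315% and 0.957% above. Cxcl15 was at 307 and 104 CPM in these FBs, which carried a median of 1 epithelial marker. In lung FBs, which carried a median of 0, it was at 1.16 to 13.7 CPM. The part of epithelial RNA in the organoid FB values was not tested. None of 16 NF-kB and cytokine input genes or 10 immediate early genes was called (medians 0.00 and -0.15), and no receptor reached 10 CPM. The 1702 and 1646 epithelial-like barcodes of the normal and fibrogenic organoids held 9.25 and 34.3 CPM of Cxcl12, 24.9 and 8.49 CPM of Cxcl14, 5.36 and 6.31 CPM of Ccl2 and 0.0823 and 0.0692 CPM of Cxcl13, below the FBs in each case. Cxcl2 was higher in these epithelial-like barcodes, at 9.24 and 5.84 CPM, than in FBs.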

How the data were processed

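The authors aligned and counted reads with Cell Ranger 3.0.1 (mouse GRCm38, Gencode annotation) and deposited filtered matrices of UMI counts per gene and barcode for 6 libraries. Their later steps, in Seurat 3 per the study's methods, were not used here. UMIs were summed with Python 3.11.15 (pandas 2.3.3, scipy 1.17.1, numpy 2.4.6), over 7201081 to 238618743 UMIs per library. Barcodes with at least 2000 UMIs and at most 20% mitochondrial UMIs were thinned to 2000 UMIs (seed 1) and given a broad type where they held at least 3 of its 8 markers and 2 more than of any other of the 7 types. FBs were gated into LipoFB-, MatrixFB-, MyoFB-, smooth muscle-, mesothelial FB- (MEFB-) and proliferating progenitor (PMP)-like subsets (at least 3 markers), else left without a subset, and no doublet caller was run. Levels are CPM of the unthinned sums with exact Poisson intervals, and shares of barcodes with a UMI were taken after thinning unless stated, with exact Clopper-Pearson intervals. FBs with at least 10 UMIs of a gene, and the highest FBs, were counted before thinning. Calls needed a log2 ratio of at least 1 on the log2(CPM + 1) scale and 10 CPM in either library. With 1 library per condition there was no test.

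Text names all members, the 3 highest and 3 lowest called genes of each pathway list (other chemokines, receptors, NF-kB and cytokine inputs, immediate early and acute phase genes) and the 3 genes most alike to each member. Genes beyond that rule were chosen after their values were seen. Members and lists were chosen with earlier results of these data known. Coordinates are from GENCODE and promoters from RefSeq, both on GRCm38. Alternatives changed thinning, gates, filters, scale, pseudocount and the cells summed. Those that changed only the minimum level left every ratio at its main value and could change calls only.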

Additional observations from a re-analysis of the deposited data

Results flagged for a closer look

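Ccl2 and Cxcl14 went in opposite directions in FBs of the 2 lung experiments, with counting intervals on either side of 0. For Ccl2 the log2 ratio of bleomycin over PBS was 2.31 after the single dose and -0.28 after repetitive dosing. For Cxcl14 it was 0.14 after the single dose and -0.21 after repetitive dosing. With 1 library per condition the difference between the experiments was not tested. The repetitive Ccl2 value was positive (0.56) in FBs without an Atf3 UMI, whereas the single-dose value was positive under all 15 alternatives, of which those of the minimum level cannot change a ratio. The part of the immediate early genes in this was not tested.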

How the results depend on the processing

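The number of members called was 5 for the single dose (4 to 6 over the alternatives), 3 for repetitive dosing (2 to 5) and 3 in organoids (1 to 4). The share of all genes called was worked out for the main settings only, so the counts under the alternatives have no such share beside them. Leaving out the 1% of FBs with the most UMIs of each chemokine gave 5 after repetitive dosing, 4 higher with Ccl11 added and Ccl2 lower (-1.03), and summing all barcodes of the organoid libraries gave 1, Ccl11. The first of these, the weighting of subsets as in the control library, the subset levels without their highest barcodes and the limit of 5000 UMIs were chosen after seeing the data. Cxcl12, Cxcl13 and Ccl8 kept a positive ratio in both lung experiments under all alternatives run, with Cxcl13 between 4.36 and 7.14 and between 1.78 and 4.21, and Ccl8 between 1.34 and 3.19 and between 1.83 and 3.60. The upper ends for Cxcl13, 7.14 and 4.21, came from an alternative that left out every Cxcl13 UMI of the PBS FBs. Its ratio could not be negative there. Ccl2 and Ccl7 lay between 1.67 and 3.37 and between 2.26 and 4.55 after the single dose, and Ccl7 between -0.48 and 0.18 after repetitive dosing. Ratios of Cxcl1 in both lung experiments, of Cxcl2 in the single-dose and organoid experiments, and of Ccl2 and Ccl7 in the repetitive experiment changed sign under at least 1 alternative, with Ccl7, at 0.01, positive in 9 of 16. All these counts and ranges include the alternatives of the minimum level, whose ratios equal the main value by construction. Cxcl14 in organoids lay between -1.22 and -0.67.

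No paired analysis was possible because each condition was 1 library, and for the same reason no library was left out. Counting error is small at these depths, and the spread between mice and libraries is unknown.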

Other observations

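Cxcl13 was also high in MEFB-like FBs, which carry mesothelial markers. The 6 MEFB-like FBs after single bleomycin held 2361 CPM (2062 to 2691) and the 10 after repetitive bleomycin held 3792 CPM (3533 to 4064), with 218 of 224 and 548 of 797 UMIs in 1 barcode each. Cxcl14 was at 94.9 and 4.76 CPM in the same barcodes. In organoids, 5 and 12 macrophage-like barcodes of the normal and fibrogenic cultures held 2253 and 1541 CPM of Ccl2, 678 and 887 CPM of Ccl7, 297 and 165 CPM of Ccl8 and 78.5 and 56.4 CPM of Cxcl2. PATS-like epithelial barcodes, named for a transitional state between AEC2 and AEC1, held 12.3 and 60.7 CPM of Cxcl12 in normal and fibrogenic organoids. These groups are small or outside the FB comparison, and their values are given without comparison.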
